A study of Mus musculus with 6 samples.

Results

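The voltage-gated sodium and calcium channel subunit genes were taken from the deposited table by symbol: every gene named as a sodium channel alpha or beta subunit (Scn followed by a number and a or b) or as a calcium channel alpha1, alpha2delta or beta subunit (Cacna1, Cacna2d and Cacnb). The rule found 32 genes among 24419: 10 sodium alpha, 4 sodium beta, 10 calcium alpha1, 4 alpha2delta and 4 calcium beta subunit genes. Epithelial sodium channel genes (Scnn1) and calcium channel gamma subunit genes (Cacng) lie outside it. RNA was measured in 6 libraries from cortex bordering an infarct in male Mus musculus, 4 days after the middle cerebral artery was blocked for 60 minutes, an operation that all 6 shared. The 3 libraries labelled control came from Padi4flox/flox mice, whose Padi4 alleles carry loxP sites and which had no Cre driver. The 3 libraries labelled cKO came from Slc17a7-cre; Slc32a1-cre; Padi4flox/flox mice, in which Cre is driven in glutamatergic and GABAergic neurons. Cre therefore differed between the groups together with Padi4. The sources used here do not give the ages of the mice or the number of mice behind a library. Pronase treatment lasted 75 minutes for all 6 libraries. Cells were sorted as positive for Thy1 and negative for ACSA2, CD31, CD45 and O4 to enrich neurons. The question was how the labelled loss of Padi4 in neurons bears on transcripts of neurons near the infarct, here the genes that set their electrical excitability and calcium entry.

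Sodium channels carry the fast upstroke of the action potential. A single large alpha protein forms the pore, and small beta proteins alter its gating and tether it to other proteins. Calcium channels open on depolarization as well: an alpha1 protein forms the pore, an intracellular beta protein brings it to the membrane, and an extracellular alpha2delta protein raises its surface number. In cortex, P/Q-type and N-type channels trigger transmitter release, L-type channels couple activity to transcription, and T-type channels open near rest and favour burst firing.

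Values are deposited scaled CPM (counts per unit of library depth, rescaled once more per library), and lists of 3 follow replicates 1, 2 and 3 of a label. Reads recovered from them ranged from 10094145 to 24056755 per library, and 3 reads, the detection floor, correspond to 0.126 to 0.303 units. Padi4, the deleted gene, had 0 reads in every library labelled control and 0, 3 and 12 reads in the libraries labelled cKO 1 to 3, so it did not bear out the labels, and each direction below is that of the labels. Thy1, the sorted surface protein, was at 107, 164 and 104 for control and 75.1, 186 and 375 for cKO, Slc17a7 at 116, 208 and 96.9 and then 51.9, 87.9 and 470.04, and Slc32a1 at 11.1, 9.71 and 2.83 and then 5.52, 11.8 and 40.4. All 3 were highest in cKO replicate 3. Pan-neuronal markers (24 genes such as Snap25 and Tubb3) were present in every library, summing to 4344, 6715 and 4772 for control and 2681, 7642 and 12691 for cKO. Oligodendrocyte markers (15 genes) summed higher than these in each library, from 13105 to 41865, although the sort excluded O4. Mural cell and fibroblast markers (15 genes) gave sums between 237 and 850 for 3 libraries and between 4090 and 7006 for the remaining ones, which were both replicates 1 and replicate 3 of cKO. Astrocyte markers summed to 880.2 to 2513, endothelial markers to 101 to 243 and microglia and macrophage markers to at most 77.6. In bulk RNA of this kind, fewer neurons and less RNA per neuron cannot be told apart.

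No channel subunit gene passed the test between the labelled groups, and most of them were lowest, within each label, in replicate 1. Of the 28 genes high enough to be tested, 21 had their lowest value in the library labelled cKO replicate 1, against 15.6% of all 14796 tested genes. In 26 of 28 that library was the lowest of its own group, and in 20 of 28 control replicate 1 was the lowest of its group, against 30.8% and 30.8% of all tested genes. The highest value lay in cKO replicate 2 for 12 genes, in cKO replicate 3 for 10 and in control replicate 2 for 6. The pan-neuronal sums were likewise lowest in the 2 replicates numbered 1, and highest in cKO replicate 3 with cKO replicate 2 next. The summed level of all 32 genes was 2112, 4130 and 3127 for control and 1677, 4593 and 4868 for cKO, so the cKO values lie on both sides of the control range. Divided by the pan-neuronal sum, it was 486, 615 and 655 per 1000 units for control and 625, 601 and 384 for cKO, lowest in the library with the most neuronal signal. On that scale 0 of 28 genes had groups that did not overlap, against 0.264% (cKO higher) and 1.33% (cKO lower) of all genes. The ratio of highest to lowest library narrowed on that scale for 21 of the 25 tested genes with reads in every library. The 4 for which it did not were Cacna1h, Cacna1c, Scn3a and Scn3b. The median ratio over the 25 was 2.79 in place of 4.41.

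**Figure D1:**
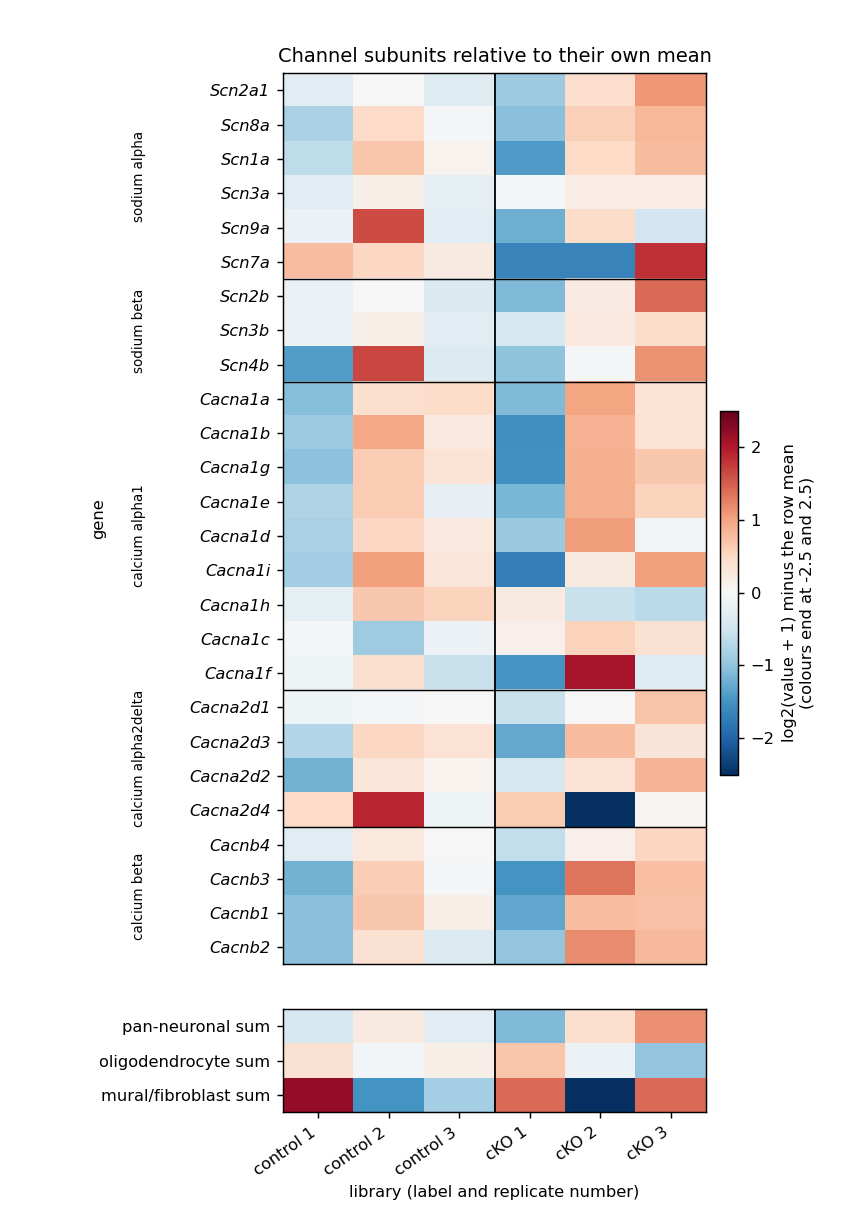
Heat map of 26 tested channel genes (rows, in 5 subunit families) and 3 marker sums (bottom rows) over the 6 libraries (columns), coloured by log2(value + 1) minus the row's mean. Most rows are blue in control replicate 1 and cKO replicate 1, whereas Cacna1h and Cacna1c follow other orders.

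Among the sodium alpha genes, Scn2a1, Scn8a, Scn1a and Scn3a made up nearly all of the signal, and the first 3 varied far less between libraries once set against the pan-neuronal sum. Scn2a1 (named Scn2a in current annotation), whose channel sits at the axon initial segment of pyramidal cells, was measured at 274, 331 and 269 in control and at 176, 453 and 703 in cKO libraries. The cKO libraries hold both the lowest and the highest value, and the controls lie between them. Per 1000 units of pan-neuronal sum, Scn2a1 was at 63.1, 49.3 and 56.4 for control and 65.7, 59.3 and 55.4 for cKO, a highest-to-lowest ratio of 1.33 in place of 4.00. Scn8a, the channel gene of mature initial segments and nodes of Ranvier, was at 182, 445 and 308 in control and at 156, 486 and 574 in cKO libraries, and its ratio of highest to lowest narrowed from 3.68 to 1.58 in the same way. Scn1a, prominent in fast-spiking interneurons, was at 101, 254 and 167 in control and at 57.9, 222 and 272 in cKO libraries. Replicate 1 was the lowest of its group for both Scn8a and Scn1a, and the groups overlap widely. Log2 fold changes, cKO minus control on log2(value + 1), were 0.40 for Scn2a1 (SE 0.46), 0.27 for Scn8a (SE 0.51) and -0.09 for Scn1a (SE 0.56).

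Scn3a behaved differently from these 3. This gene is known for its high expression before birth and its return in some injured neurons. It was at 68.6, 90.6 and 69.7 in control and at 79.4, 93.9 and 93.9 in cKO libraries, the narrowest spread of the tested channel genes, with a highest-to-lowest ratio of 1.37. Replicate 1 was again the lowest of each group, but by a small margin, and per 1000 units of pan-neuronal sum it ran from 7.40 in cKO replicate 3 to 29.6 in cKO replicate 1. Its log2 fold change was 0.23 (SE 0.30). Levels were also divided by kb of merged annotated exon, used or not, so ranks between genes on that scale depend on the annotation. There Scn2a1 averaged 28.9 over the 6 libraries, Scn8a 22.7, Scn1a 16.0 and Scn3a 6.64. Scn2a1 thus held 30.9% to 45.2% of the per-kb signal of these 4 genes, and Scn3a held 11.6, 8.63 and 9.14% for control and 18.1, 8.04 and 6.10% for cKO. The Scn3a share was largest in cKO replicate 1 and smallest in cKO replicate 3, the libraries with the lowest and the highest pan-neuronal sum.

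Other sodium alpha genes were scarce. Scn9a, better known from pain-sensing neurons, was at 5.53, 21.4 and 5.06 in control and at 2.11, 8.99 and 4.21 in cKO libraries, and control replicate 2 stands alone. Scn7a, a sodium-sensing channel gene also found in glia, was at 4.42, 3.53 and 2.72 in control and at 0, 0 and 10.3 in cKO libraries, with 0 reads in cKO replicates 1 and 2. Log2 fold changes were -0.82 for Scn9a (SE 0.74) and -1.01 for Scn7a (SE 0.95). The Scn9a value was -0.21 without control replicate 2, and the Scn7a value, whose group means were 3.56 and 3.44, was -0.23 with a pseudocount of 5, -0.05 in edgeR and -0.11 in DESeq2. Scn4a, the skeletal muscle channel gene, and the sensory neuron genes Scn10a and Scn11a were too low to be tested, at no more than 4.33, 1.14 and 0.221 in any library. Scn11a had 3 reads in control replicate 2 and none in the other 5 libraries. Scn3a, Scn2a, Scn1a, Scn9a and Scn7a lie near each other on chromosome 2 between 65457118 and 66784914 (mm10, GENCODE M21). They are close paralogs, and the sources used here do not give the handling of reads that match more than 1 of them.

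The sodium beta genes Scn2b, Scn3b and Scn4b were detected in every library. Scn2b, which encodes a subunit linked to the alpha protein by a disulphide bond, was at 52.5, 57.3 and 44.8 in control and at 26.5, 66.6 and 156 in cKO libraries. Replicate 1 of cKO lies below the control range and replicate 3 far above it, whereas per 1000 units of pan-neuronal sum Scn2b ran from 8.53 to 12.3. Scn3b was at 27.8, 34.3 and 25.4 in control and at 22.7, 36.8 and 43.2 in cKO libraries, a narrow range. Scn4b, whose protein takes part in resurgent current, was at 5.07, 49.5 and 11.5 in control and at 6.96, 14.5 and 33.6 in cKO libraries, with control replicate 2 and cKO replicate 3 high. None of these log2 fold changes reached its own SE: 0.34, 0.19 and 0.05 for Scn2b, Scn3b and Scn4b, with SEs of 0.55, 0.40 and 0.81.

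**Figure D2:**
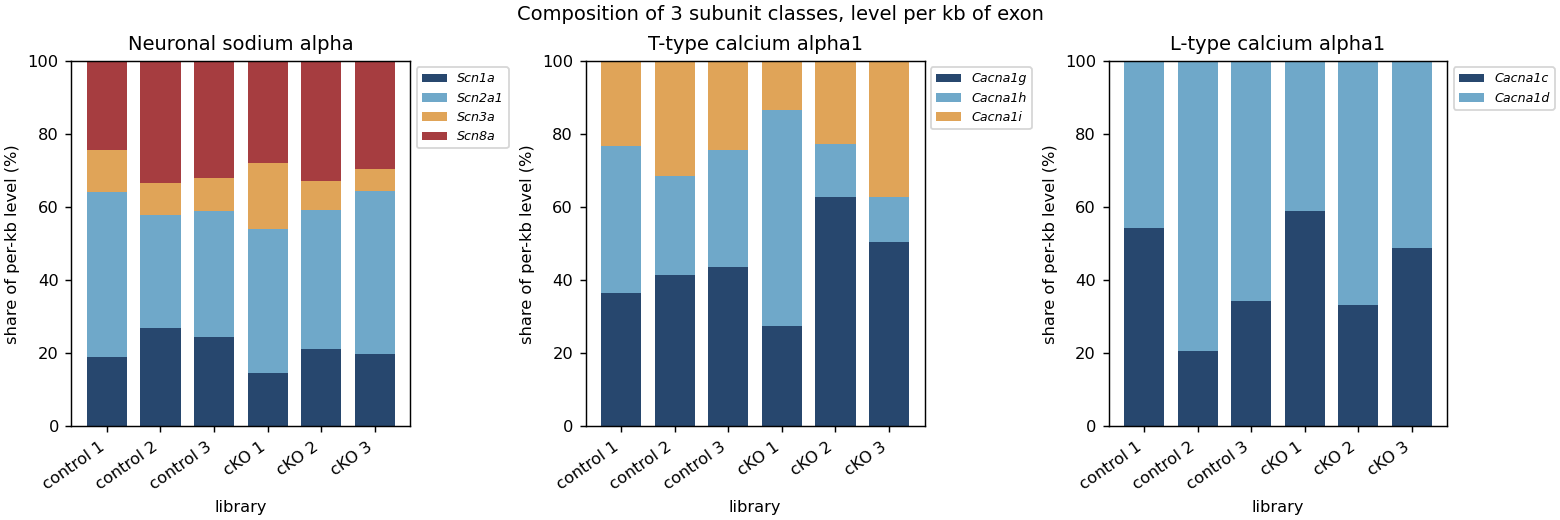
Stacked bars of the share (%) that each gene took of its class's level per kb of exon, by library, for neuronal sodium alpha, T-type calcium alpha1 and L-type calcium alpha1 genes. Cacna1h held 59.0% of the T-type signal in cKO replicate 1 and 12.5% in cKO replicate 3, and Scn3a its largest sodium share, 18.1%, in cKO replicate 1.

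Most of the pore-forming calcium channel genes were low in both replicates 1, as the neuronal markers were. Cacna1a, the pore gene of P/Q-type channels, was at 108, 299 and 312 in control and at 105, 453 and 287 in cKO libraries. Cacna1b, the N-type pore gene, was at 72.9, 272 and 165 in control and at 47.1, 255 and 179 in cKO libraries. Cacna1e, the R-type pore gene, was at 154, 404 and 223 in control and at 117, 487 and 382 in cKO libraries. All 3 were lowest in cKO replicate 1 with control replicate 1 next. In contrast to Scn2a1 and Scn8a, all 3 were higher in cKO replicate 2 than in cKO replicate 3. Per 1000 units of pan-neuronal sum, cKO replicates 2 and 3 were at 59.3 and 22.6 for Cacna1a and 33.3 and 14.1 for Cacna1b. For Cacna1e they were at 63.7 and 30.1, and on that scale all 3 genes were lowest in cKO replicate 3. Their highest-to-lowest ratios narrowed from 4.30, 5.78 and 4.17 to 2.89, 2.88 and 2.12. Cacna1e had the highest mean deposited value of the 3, 294 against 261 for Cacna1a and 165 for Cacna1b. The order differed per kb of exon, where Cacna1a averaged 22.8, Cacna1b 16.6 and Cacna1e 11.7. The Cacna1a share of this signal was 37.7% to 51.8%, the largest of the 3 in every library but control replicate 2. The Cacna1b share was 32.0, 39.3 and 31.5% for control and 25.5, 30.3 and 30.9% for cKO. Those groups did not overlap, by a small margin. Among all shares computed, only those of Cacna1b and Cacna2d2 had groups that did not overlap, and no share was tested. An antisense gene, Gm16183, covers 3.81% of the exon bases of Cacna1a. Their log2 fold changes were 0.15 (SE 0.56), -0.20 (SE 0.63) and 0.21 (SE 0.54).

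Cacna1c, the pore gene of the main L-type channel of neurons and smooth muscle, was the only tested member whose groups did not overlap. It was at 108, 59.8 and 101 in control and at 122, 168 and 147 in cKO libraries, with means of 89.7 ± 26.2 and 146 ± 23.0 (SD, n = 3 each). Every library labelled cKO lay above every library labelled control. The log2 fold change was 0.73 (SE 0.33), with an unadjusted p of 0.0510 and an adjusted p of 0.9996 over all genes in limma, so the difference did not pass. Of all tested genes, 2.45% had no overlap with cKO higher, 2.26% with cKO lower and 4.7% in either direction, so 1 of 28 members is near that background. Without control replicate 2, the lowest library, the log2 fold change was 0.46 (unadjusted p 0.198 in limma). Without control replicate 1 it was 0.89 (unadjusted p 0.0492 in limma), and these are the ends of its range with 1 library left out. The unadjusted p was 0.0418 in limma with a replicate block, 0.0651 in edgeR and 0.0692 in DESeq2. The gene was called in none of these fits. Its values did not follow the pan-neuronal sums: per 1000 units of that sum it was at 24.98, 8.91 and 21.1 for control and 45.5, 22.0 and 11.6 for cKO, where the groups overlap. Cacna1d, the other L-type gene of brain, was at 54.1, 138 and 114 in control and at 50.3, 200.3 and 91.4 in cKO libraries, low in both replicates 1 as the neuronal markers were (log2 fold change 0.04, SE 0.52). Cacna1c made up 54.4, 20.51 and 34.4% of the per-kb L-type signal for control and 59.1, 33.3 and 48.9% for cKO. Without division by exon length, Cacna1c averaged 118 and Cacna1d 108 over all libraries. Cacna1f, the retinal L-type gene, was at 1.57, 2.65 and 0.889 in control and at 0, 10.6 and 1.22 in cKO libraries, low except in cKO replicate 2. Cacna1s, the skeletal muscle one, was below the test's minimum at no more than 1.39. Within the exons of Cacna1d, 4.67% of bases overlap Chdh on the other strand, and the sources used here do not give the strand setting of the counts.

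**Figure D3:**
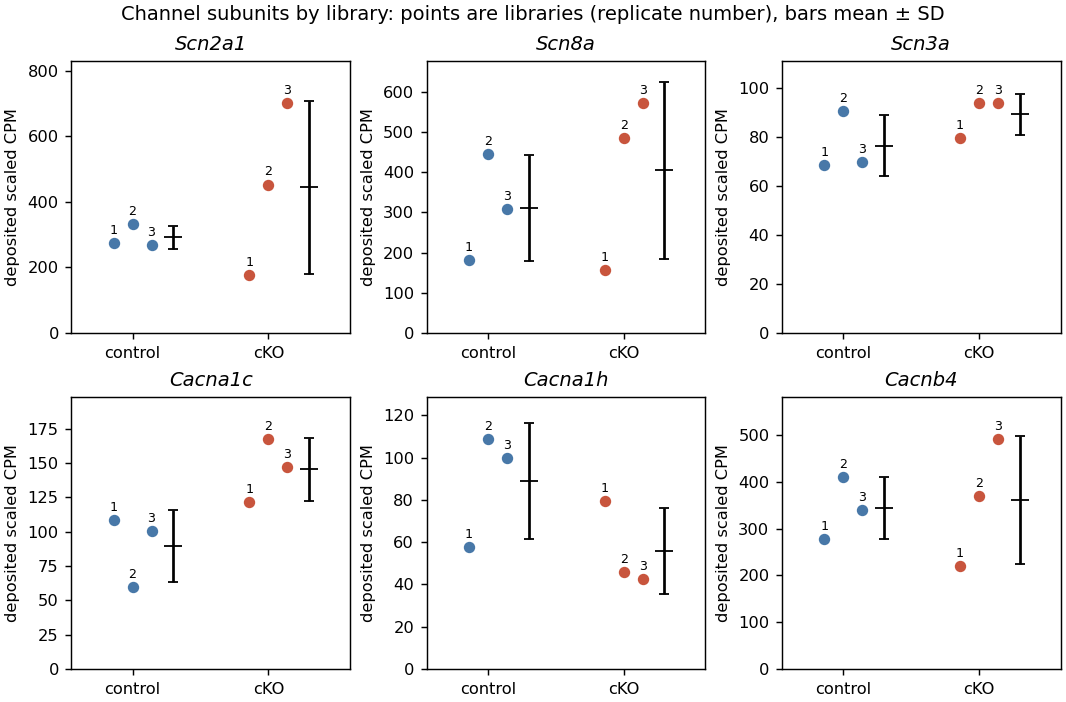
Deposited scaled CPM of 6 channel genes in each library (points, with replicate numbers) for the labelled control and cKO groups, with mean ± SD beside them and axes starting at 0. The cKO points of Cacna1c all lie above the control points, those of Scn2a1, Scn8a and Cacnb4 spread across the control range and beyond it, and Scn3a stays between 68.6 and 93.9.

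The T-type genes split. Cacna1g was at 54.3, 173 and 142 in control and at 38.5, 208 and 178 in cKO libraries, and Cacna1i was at 33.5, 127 and 77.1 in control and at 18.2, 72.9 and 127 in cKO libraries. Both were lowest in cKO replicate 1. Cacna1h, whose channel is also found outside neurons, was at 57.8, 109 and 100.1 in control and at 79.3, 45.8 and 42.4 in cKO libraries. Here cKO replicate 1 is above control replicate 1, and cKO replicates 2 and 3, which had the highest pan-neuronal sums, are the lowest of all. Log2 fold changes were 0.03 for Cacna1g (SE 0.64) and -0.31 for Cacna1i (SE 0.68). The Cacna1h log2 fold change was -0.67 (SE 0.38, unadjusted p 0.110 and adjusted p 0.9996 in limma), and its groups overlap through both replicates 1. Its share of the per-kb T-type signal was 40.4, 27.1 and 32.0% for control and 59.0, 14.4 and 12.5% for cKO. Oligodendrocyte marker sums in the same order were 33704, 24812 and 28872 and then 41865, 23501 and 13105, and oligodendrocyte precursor sums were 3869.9, 3242 and 3652 and 4796, 2766 and 2900.2. The part of these cells in the Cacna1h values was not tested.

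Of the alpha2delta genes, which include the binding site of gabapentin, Cacna2d1 was the most abundant at 26.4 per kb of exon. It was at 293, 308 and 314 in control and at 216, 317 and 522 in cKO libraries. The controls lie close together, between the extremes of cKO. Cacna2d3 was at 53.7, 129.8 and 116 in control and at 36.3, 157 and 113 in cKO libraries, lowest in both replicates 1. Cacna2d1 and Cacna2d3 had log2 fold changes of 0.11 (SE 0.36) and -0.10 (SE 0.54). Cacna2d2 was at 7.37, 22.6 and 19.1 in control and at 13.1, 23.5 and 33.2 in cKO libraries, with a log2 fold change of 0.53 (SE 0.56). Its share of the per-kb alpha2delta signal was 2.93, 6.26 and 5.78% for control and 6.80, 6.37 and 6.96% for cKO. These shares did not overlap, by a small margin, and were not tested. Cacna2d4, known from the retina, was at 9.59, 27.3 and 5.94 in control and at 10.8, 0 and 6.86 in cKO libraries. It had the most negative log2 fold change of the members, -1.50 (SE 0.96, unadjusted p 0.148 in limma), which rests on 0 reads in cKO replicate 2 and 27.3 units in control replicate 2. It was 0.17 without both of those libraries, an alternative added once the values were known. Cacna2d4 and Cacna1c are neighbours on chromosome 6, Cacna1c from 118587240 to 119196418 and Cacna2d4 from 119236526 to 119352407.

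The calcium channel beta genes were led by Cacnb4, whose loss causes seizures and ataxia in the lethargic mouse. It was at 278, 411 and 341 in control and at 221, 370.2 and 493 in cKO libraries, averaging 39.3 per kb of exon. Replicate 1 was the lowest of each group, and the log2 fold change was 0.02 (SE 0.36). An antisense gene, A430018G15Rik, covers 16.0% of its exon bases, and antisense genes cover 7.32% of those of Cacnb2. Cacnb3 was at 23.5, 84.4 and 53.8 in control and at 18.9, 139 and 93.0 in cKO libraries. Cacnb1 was at 17.6, 60.8 and 41.9 in control and at 14.7, 64.7 and 63.2 in cKO libraries. Cacnb2 was at 15.5, 43.1 and 25.8 in control and at 16.0, 75.9 and 58.7 in cKO libraries, with a log2 fold change of 0.67 (SE 0.60). All 3 were lowest in the 2 replicates numbered 1 and higher in cKO replicates 2 and 3. Their log2 fold changes were 0.40 for Cacnb3 (SE 0.70) and 0.14 for Cacnb1 (SE 0.63). Cacnb4 took 43.0% to 74.0% of the per-kb beta signal, most in both replicates 1.

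The sequences upstream of transcription starts are given for 4 members with their lowest value in cKO replicate 1 (Scn2a1, Scn8a, Cacna1b, Cacna2d1) and for Cacna1c, which was lowest in control replicate 2. Each is the 250 bases before a RefSeq start on GRCm38.p6, written 5′ to 3′ on the gene's strand, with capitals marking GC boxes (GGGCGG on either strand) and TATA boxes (TATAAA on either strand). The 2 motifs share no letters here, and the last 2 GC boxes of Cacna2d1 overlap by 1 base. Of the 32 members, 24 had an entry in the promoter table.
Scn2a1, first start, chr2:65620519-65620768, plus strand: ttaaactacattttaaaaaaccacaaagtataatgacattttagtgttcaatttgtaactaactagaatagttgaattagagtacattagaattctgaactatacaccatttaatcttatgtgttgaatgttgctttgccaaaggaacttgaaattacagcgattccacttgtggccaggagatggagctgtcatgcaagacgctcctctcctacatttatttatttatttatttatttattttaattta
Scn2a1, second start, chr2:65668436-65668685, plus strand: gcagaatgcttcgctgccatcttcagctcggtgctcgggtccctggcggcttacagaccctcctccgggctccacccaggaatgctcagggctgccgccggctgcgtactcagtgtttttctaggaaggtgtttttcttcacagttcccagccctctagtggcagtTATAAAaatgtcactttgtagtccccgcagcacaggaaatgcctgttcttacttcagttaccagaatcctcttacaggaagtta
Scn8a, first start, chr15:100870395-100870644, plus strand: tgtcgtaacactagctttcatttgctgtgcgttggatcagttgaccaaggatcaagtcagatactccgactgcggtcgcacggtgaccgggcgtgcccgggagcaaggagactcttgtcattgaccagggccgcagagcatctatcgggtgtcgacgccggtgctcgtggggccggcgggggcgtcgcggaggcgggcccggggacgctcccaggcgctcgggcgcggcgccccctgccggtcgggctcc
Cacna1b, chr2:24763153-24763402, minus strand: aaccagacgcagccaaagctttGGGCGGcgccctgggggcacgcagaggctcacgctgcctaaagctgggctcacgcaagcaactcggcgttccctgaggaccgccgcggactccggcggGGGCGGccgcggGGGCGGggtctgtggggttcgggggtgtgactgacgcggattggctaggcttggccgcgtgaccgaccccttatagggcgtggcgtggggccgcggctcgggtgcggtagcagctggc
Cacna2d1, chr5:15934441-15934690, plus strand: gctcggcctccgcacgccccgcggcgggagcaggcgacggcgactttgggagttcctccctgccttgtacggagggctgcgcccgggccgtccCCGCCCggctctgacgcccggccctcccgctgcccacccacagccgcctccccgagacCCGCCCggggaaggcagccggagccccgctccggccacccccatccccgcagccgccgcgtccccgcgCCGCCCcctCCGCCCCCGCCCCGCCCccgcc
Cacna1c, first start, chr6:119196410-119196659, minus strand: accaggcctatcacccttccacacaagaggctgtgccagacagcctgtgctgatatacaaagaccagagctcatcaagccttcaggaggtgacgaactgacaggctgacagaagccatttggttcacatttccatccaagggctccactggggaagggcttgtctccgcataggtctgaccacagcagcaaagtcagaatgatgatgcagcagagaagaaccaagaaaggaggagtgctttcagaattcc
These windows differ widely in composition although the first 4 genes shared low values in cKO replicate 1. G and C made up 29.6% of the first Scn2a1 window and 53.2% of the second, 68.0% for Scn8a, 72.0% for Cacna1b, 82.4% for Cacna2d1 and 51.6% for Cacna1c. GC boxes numbered 3 for Cacna1b and 6 for Cacna2d1, and the second Scn2a1 window held 1 TATA box. Over all 34 windows of members, 38.2% held a GC box and 5.88% a TATA box, against 32.7% and 12.4% of 32851 windows of the same length. A match describes these letters and not a bound site.

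Between the labelled groups, limma made 0 calls among 28 channel genes in either direction (adjusted p under 0.05), as over all genes (0% in each direction). At an unadjusted p under 0.05 there were 0 of 28, against 0.852% of all genes, and edgeR and DESeq2 on recovered reads also gave 0 of 28, adjusted or not. The SEs ran from 0.30 to 0.96 on the log2 scale, with a median of 0.56. The log2 fold change was above 0 for 20 of 28, against 48% of all genes, with a median of 0.13 against -0.02. That count was 10 of 28 without control replicate 1, 10 without cKO replicate 2 and 9 without cKO replicate 3, and up to 24 without control replicate 2 or cKO replicate 1. With the mean pan-neuronal level as a covariate it was 10 of 28, against 47.7% of all genes, with a median of -0.08 against -0.02. The covariate left Cacna1c at 0.72 (SE 0.31, unadjusted p 0.0406) and Cacna1h at -0.61. It took Scn2a1 from 0.40 to 0.20 and Scn8a from 0.27 to 0.04. Other genes moved further below 0: Cacna1b from -0.20 to -0.47 and Cacna1i from -0.31 to -0.63. Scn1a went from -0.09 to -0.36 and Cacna2d3 from -0.10 to -0.32.

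**Figure D4:**
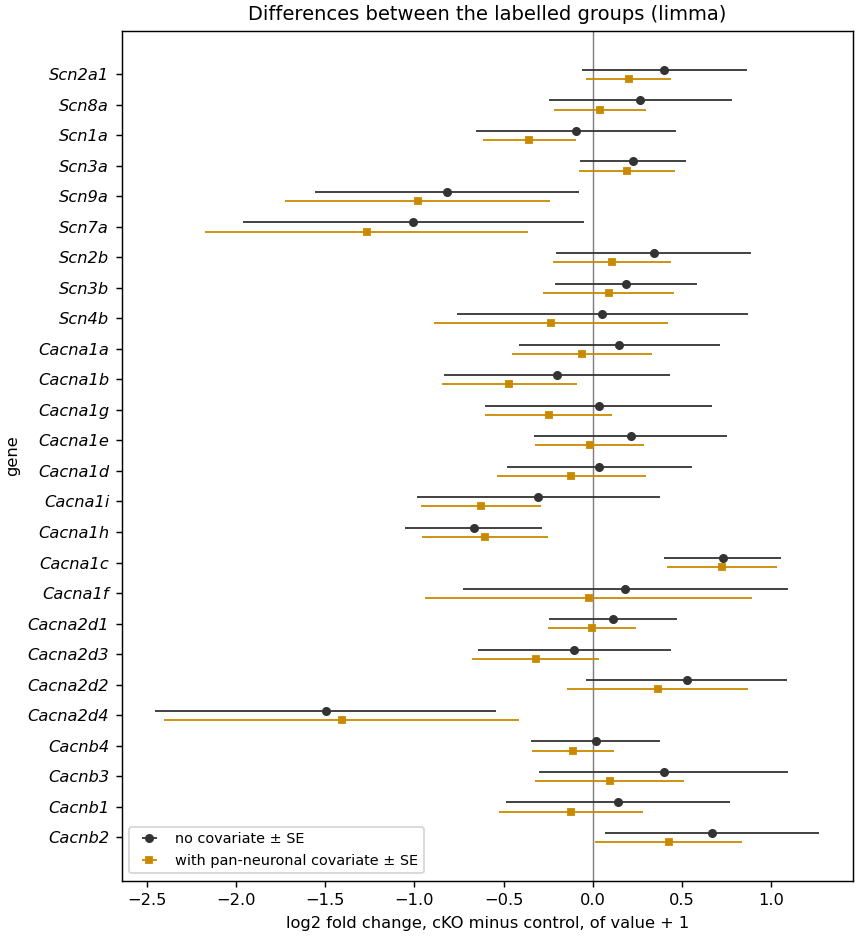
Log2 fold change (cKO minus control, on value + 1) ± SE of 26 tested channel genes from limma, without (circles) and with (squares) the pan-neuronal level as a covariate. Cacna1c sits at 0.73 and 0.72, and more circles than squares lie above 0.

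Genes whose proteins anchor these channels, modulate them or act on the calcium they admit were looked at beside them, in 6 lists with 60 tested genes of 68 listed. None was called in limma, as over all genes, and none had an unadjusted p under 0.05, against 0.852% of all genes. Of the 60, 36 were above 0 and 24 below, against 48% of all genes above 0. The median log2 fold change was 0.11, against -0.02 over all genes. Among the 60, 31 had their lowest value in cKO replicate 1, against 15.6% of all tested genes. Of 12 initial segment and fibroblast growth factor homologous factor genes, 7 were above 0 and 5 below, and Ank2 was the only gene of the 60 whose groups did not overlap, with cKO higher, against 2.45% of all genes in that direction and 4.7% in either. Sptbn4, the spectrin that anchors sodium channels at the initial segment, was at 50.1, 237 and 212 (control) and 32.1, 197 and 132 (cKO). It was low in both replicates 1, as Scn8a and Scn1a were. Fgf14, a sodium channel modulator, was at 28.5, 56.3 and 24.7 (control) and 16.3, 92.6 and 87.9 (cKO), and Fgf11 at 12.6, 16.1 and 12.7 (control) and 14.2, 0.909 and 10.4 (cKO).

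Of 12 tested active zone genes that place calcium channels at release sites, 6 were above 0 and 6 below. Unc13a, a vesicle priming gene, was at 107, 307 and 279 (control) and 49.4, 318 and 181 (cKO), Erc2, an active zone scaffold, at 94.9, 311 and 267 (control) and 59.5, 299 and 169.9 (cKO), and Apba1 at 120.1, 94.8 and 122 (control) and 118, 147 and 162 (cKO). Unc13a and Erc2 were low in both replicates 1 and, like Cacna1a, higher in cKO replicate 2 than in cKO replicate 3. Among 12 tested regulators of calcium channels, 5 were above 0 and 7 below. Gem, a small GTPase that inhibits calcium channels, was at 19.4, 5.002 and 28.7 (control) and 16.5, 0 and 5.26 (cKO). Prkaca, a kinase that acts on L-type channels, was at 69.5, 53.3 and 51.5 (control) and 62.1, 129 and 113 (cKO) (log2 fold change 0.74, SE 0.36, unadjusted p 0.0652 in limma). Calm3, one of the calmodulin genes, was at 247, 281 and 194 (control) and 178, 376 and 545 (cKO), highest in cKO replicate 3.

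All 4 tested genes of the NALCN sodium leak channel complex were above 0. Nalcn was at 84.7, 93.4 and 98.9 (control) and 99.8, 87.6 and 135 (cKO), Unc79 at 73.8, 205 and 142 (control) and 78.6, 270.3 and 135 (cKO), and Fam155a at 33.7, 63.3 and 51.8 (control) and 28.2, 122 and 94.9 (cKO). Of the 3, Nalcn varied least between libraries. Of 14 calcium extrusion and calcium response genes, 12 were above 0 and 2 below. Slc8a3, a sodium-calcium exchanger, was one of the 2, at 24.2, 50.1 and 48.6 (control) and 16.6, 19.9996 and 26.7 (cKO) (log2 fold change -0.88, SE 0.44, unadjusted p 0.0711 in limma). Slc8a2, its paralog, was at 70.2, 72.9 and 73.8 (control) and 52.2, 105 and 227 (cKO), and the calcium pump gene Atp2b4 at 113, 109 and 78.4 (control) and 88.0, 128 and 171 (cKO). Both were highest in cKO replicate 3. In the gamma family, which includes AMPA receptor partners, 2 of 6 were above 0. Cacng5 was at 59.3, 25.3 and 86.9 (control) and 83.0, 0.202 and 21.2 (cKO), Cacng4 at 31.2, 48.7 and 37.3 (control) and 34.8, 30.0 and 31.0 (cKO) and Cacng8 at 5.53, 22.6 and 9.28 (control) and 7.29, 24.4 and 19.1 (cKO). Cacng5 was below the detection floor in cKO replicate 2, where the number of genes with any read was also the smallest, 14042.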

How the data were processed

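RNA of sorted cells was sequenced in 6 libraries (3 per label), with Ovation SoLo library chemistry, per the labels' protocols. Tools named in the submitters' processing notes are Trimmomatic, HISAT2, featureCounts and edgeR, with the mm10 build and no versions. The annotation, strand setting and multi-mapping choice were not given in the sources used here. The authors deposited 1 table of normalized signal per gene, CPM rescaled per library (column totals 961962 to 1027958, where the design had assumed plain CPM). Every value was within 0.001 of a whole number of reads, so reads were recovered (10094145 to 24056755 per library).

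The main test was limma 3.58.1 (R 4.3.3, mean-variance trend) on log2(value + 1) over 14796 genes with at least 1 unit in at least 3 libraries, with Benjamini-Hochberg adjustment over all of them and calls at 0.05. The pseudocount of 1 understates changes of low genes. Each of these was varied in turn: the pseudocount (0.1 or 5), the filter (none, or a minimum of 5), the scaling (median of ratios), a replicate block, a pan-neuronal covariate, each library left out, and edgeR 4.0.16 and DESeq2 1.42.0 on recovered reads. The procedure was tested on simulated data in which each gene varied independently. No shift of neuronal markers between libraries was simulated, so that test does not show what limma could call in these libraries. Nothing in the labels ties each library to its own mouse, and p-values therefore reflect only how far these 6 samples spread, possibly for technical reasons. Levels per kb used merged exon lengths of GENCODE M21, matched by symbol for 32 of 32 members.

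Results for 2 tested members are not reported here, although counts over the members include them. All other tested members were described, and in each associated list the 3 genes with the smallest unadjusted p. Ank2 was named after its values were seen. Members and lists were chosen with earlier results of these data known.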

Additional observations from a re-analysis of the deposited data

How the results depend on the processing

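No channel or associated gene was called in the fit as reported or in any of 17 alternatives. Over all genes, 1 was called by DESeq2 (Ifit3) and 1 without both libraries numbered 1 (Dusp10), and none elsewhere. The count of channel genes above 0 ran from 16 to 22 under the other settings, except 10 with the pan-neuronal covariate and 9 to 24 with 1 library left out; the median log2 fold change then ran from -0.23 to 0.67. Without cKO replicate 1, 7 of 28 channel genes had an unadjusted p under 0.05 in limma, against 989 of all 14796 tested genes. Without both libraries numbered 1 the counts were 4 of 28 and 603 of 14796. The share of channel genes was the larger in both settings, and none of these channel genes was called. Of 28 channel genes, 7 kept their direction in every setting in which they were tested: Cacna1h -1.23 to -0.38, Cacna1c 0.35 to 1.01, Cacna2d2 0.066 to 0.87, Cacnb2 0.24 to 1.33, Scn3a 0.16 to 0.36, Scn9a -1.25 to -0.21, Scn7a -2.93 to -0.050. Their sizes moved by more than 1.5 times under at least 1 setting. Log2 fold changes that changed sign, each uncalled, were as follows. With the covariate: Cacna1a -0.060, Cacna1g -0.25, Cacna1e -0.017, Cacna1d -0.12, Cacna1f -0.023, Cacna2d1 -0.0026, Cacnb4 -0.11, Cacnb1 -0.12, Scn4b -0.23, Unc79 -0.015. With edgeR: Cacna2d3 0.033, Scn1a 0.079, Scn4b -0.27. With DESeq2: Cacna2d3 0.022, Scn1a 0.058, Scn4b -0.30. With a pseudocount of 0.1, Cacna1f -0.56, with 5, Scn4b -0.0015, and with median-of-ratios scaling, Cacnb4 -0.00088. Without both libraries numbered 2: Cacna1a -0.077, Cacna1g -0.081, Cacna1d -0.21, Cacna1f -0.56, Cacna2d4 0.17. Without both numbered 1: Cacna1b 0.0100, Cacna2d3 0.12, Scn1a 0.25, Scn4b -0.11. Both of these settings were chosen after the data were seen. Ranges with 1 library left out: Cacna1a -0.35 to 0.74, Cacna1g -0.47 to 0.80, Cacna1e -0.19 to 0.84, Cacna1d -0.48 to 0.51, Cacnb4 -0.24 to 0.33, Cacnb3 -0.17 to 1.24, Cacnb1 -0.35 to 0.83, Scn8a -0.085 to 0.85, Scn4b -0.63 to 0.90, Unc79 -0.32 to 0.56, Cacna1b -0.71 to 0.52, Cacna1i -0.90 to 0.47, Cacna2d3 -0.53 to 0.51, Scn1a -0.51 to 0.60, Cacna1f -0.81 to 0.96, Sptbn4 -1.24 to 0.24, Unc13a -1.14 to 0.19, Erc2 -0.99 to 0.18, Cacna2d1 -0.22 to 0.42, Scn2a1 -0.038 to 0.96, Scn2b -0.28 to 0.98, Scn3b -0.0015 to 0.45. The cause was not tested. Same-numbered libraries of the 2 groups correlated in their deviations from the group mean at 0.49, 0.30 and 0.03. Each library correlated best with its own number. Deviations from a mean of 3 libraries are not independent, so these values do not settle whether the numbers pair the samples. The main test did not pair them. With the replicate block 0 genes were called (307 at an unadjusted p under 0.05, against 126 without it) and 20 of 28 channel genes stayed above 0, with a median of 0.13.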
